A study of Arabidopsis thaliana with 18 samples.

Results

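THE1, XTH16 and EXO are plant cell wall and growth genes, described here with the 1 probe set that each has on the array. They are 3 of 22746 probe sets and were chosen by their log2 levels in the stn7 mutant, which earlier results of these data showed to be higher than in the wild type. The differences between genotypes, and the changes within one genotype, are therefore a description and carry no test. RNA of rosette leaves was hybridised to 18 Affymetrix arrays, 3 biological replicates for each of 6 groups. The groups were the wild type Col-0 (WT) and stn7, a knockout line (SALK_073254) in the Col-0 background, which lacks the chloroplast kinase STN7 that is switched on when the plastoquinone pool is reduced. Each genotype was sampled at 0 min, at the end of 3 days under PSI light, which mainly excites photosystem I, and 30 min and 60 min after a move to PSII light, which mainly excites photosystem II. Before the PSI light all groups had grown for 20 days under white light (35 µE, 22 °C, humidity 60%), and for each sample at least 250 plants, aged 23 days, were pooled. The mutant is represented by 1 insertion line. Plants left under PSI light for the same 30 or 60 min were not among the groups, so a change with time cannot be told apart from a change with the light.

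The plant cell wall is a load-bearing network of cellulose, xyloglucan and pectin that must loosen for a cell to grow. THE1 (THESEUS1, AT5G54380, probe set 248179_at) is a receptor kinase of the CrRLK1L family, which senses the state of the wall at the cell surface and can restrain elongation when cellulose synthesis is disturbed. XTH16 (AT3G23730, probe set 257203_at) belongs to the xyloglucan endotransglucosylase/hydrolases, secreted enzymes that cut and rejoin xyloglucan chains. EXO (EXORDIUM, AT4G08950, probe set 255064_at) is a secreted protein whose transcript rises with brassinosteroid, a steroid hormone of growth, and which promotes leaf cell expansion.

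Values are log2 expression after RMA, the authors' summary of the probes of a probe set, so a difference of 1 is a 2-fold change. The array medians ran from 6.1 to 6.31 and the lowest values from 2.53 to 2.67, and all values of the 3 genes lay above the median of their array. Levels are compared between arrays only within a gene. Within-group correlations of arrays ran from 0.9896 to 0.9967. Arrays differed inside groups along a common axis, the first principal component of the deviations from the group means, with 28% of that variance. Its mean score was highest in WT at 0 min (32.9 ± 20, SD, n = 3), -2.9 ± 20.4 in stn7 at 0 min, 15.1 ± 15.1 in stn7 at 60 min and between -15.4 and -14.8 in the other groups. The 3' minus 5' difference of control probe sets, a sign of RNA integrity, was 1.05 ± 0.03 in WT and 1.11 ± 0.16 in stn7 at 60 min and between 0.87 and 0.93 in the other groups.

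Of the 29 markers listed for the leaf and for other tissues, 4 had a named probe set. PRK, a Calvin-Benson cycle enzyme of green leaf cells, lay between 11.11 and 11.74 on all arrays. The root hair expansin EXPA7 lay between 3.87 and 4.41, near the lowest values of the arrays. PYK10, a beta-glucosidase abundant in roots, lay between 11.71 and 12.53, and the guard cell regulator FAMA between 6.55 and 7.34. From 0 to 60 min PRK fell by 0.29 ± 0.09 (limma adjusted p = 0.021), a call lost without WT 0 min replicate 1 or 2, WT 60 min replicate 2 or stn7 0 min replicate 2 (adjusted p up to 0.0541), and with the 3' to 5' difference as a covariate (limma adjusted p = 0.191). As a mean over times FAMA was higher in stn7 by 0.38 ± 0.07 (SE, limma adjusted p = 0.003) and PYK10 by 0.32 ± 0.07 (limma adjusted p = 0.0101). The part of these markers in the results was not tested, and in a pooled tissue more cells of a type and more RNA per cell cannot be told apart.

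THE1 was higher in stn7 than in WT at every time, and it was highest in stn7 at 60 min. In WT its log2 values were 8.32, 8.13 and 7.92 at 0 min, 7.96, 8.17 and 8.21 at 30 min and 8.69, 8.62 and 8.62 at 60 min. In stn7 they were 8.45, 9.08 and 8.93 at 0 min, 9.12, 8.6 and 8.82 at 30 min and 9.81, 9.61 and 9.72 at 60 min. All 3 stn7 arrays lay above all 3 WT arrays at each time, with the narrowest margin at 0 min, where stn7 replicate 1 came close to WT replicate 1. The difference was 0.70 ± 0.15 (SE, n = 3 arrays per group) at 0 min, 0.73 ± 0.15 at 30 min and 1.07 ± 0.15 at 60 min, the last of these 2.1-fold. As a mean over times it was 0.83 ± 0.09.

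XTH16 was higher in stn7 at 60 min, and its genotypes overlapped at 0 and 30 min. Its values in WT were 8.93, 8.54 and 8.89 at 0 min, 8.38, 8.51 and 8.5 at 30 min and 8.69, 8.86 and 8.93 at 60 min. In stn7 they were 8.02, 9.09 and 9.02 at 0 min, 9.09, 8.52 and 8.44 at 30 min and 10.03, 9.83 and 9.79 at 60 min. The stn7 60 min arrays stood apart from all other arrays of this gene, while stn7 replicate 1 at 0 min was the lowest of the 18. The difference between genotypes was -0.08 ± 0.22 at 0 min, 0.22 ± 0.22 at 30 min and 1.05 ± 0.22 at 60 min (2.08-fold). Without stn7 0 min replicate 1 the 0 min difference was 0.27 ± 0.16, and without stn7 30 min replicate 1 the 30 min difference was 0.02 ± 0.22. The mean over times, 0.40 ± 0.13, therefore joins 2 times with small differences and 1 with a large one.

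EXO overlapped between the genotypes at 0 min and was higher in stn7 from 30 min on. Its WT values were 9.14, 8.78 and 9.53 at 0 min, 8.61, 9.1 and 9.3 at 30 min and 10.16, 10.25 and 10.44 at 60 min. In stn7 they were 8.4, 9.5 and 9.7 at 0 min, 10.94, 9.81 and 9.93 at 30 min and 11.4, 10.96 and 11.07 at 60 min. The genotypes did not overlap at 30 and 60 min, and the stn7 arrays at 30 min covered the range of the WT arrays at 60 min. The difference was 0.05 ± 0.31 at 0 min, 1.23 ± 0.31 at 30 min (2.34-fold) and 0.85 ± 0.31 at 60 min (1.81-fold). Without stn7 30 min replicate 1, the highest of its group, the 30 min difference was 0.87 ± 0.30, and without stn7 0 min replicate 1, the lowest of its group, the 0 min difference was 0.45 ± 0.28.

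**Figure D1:**
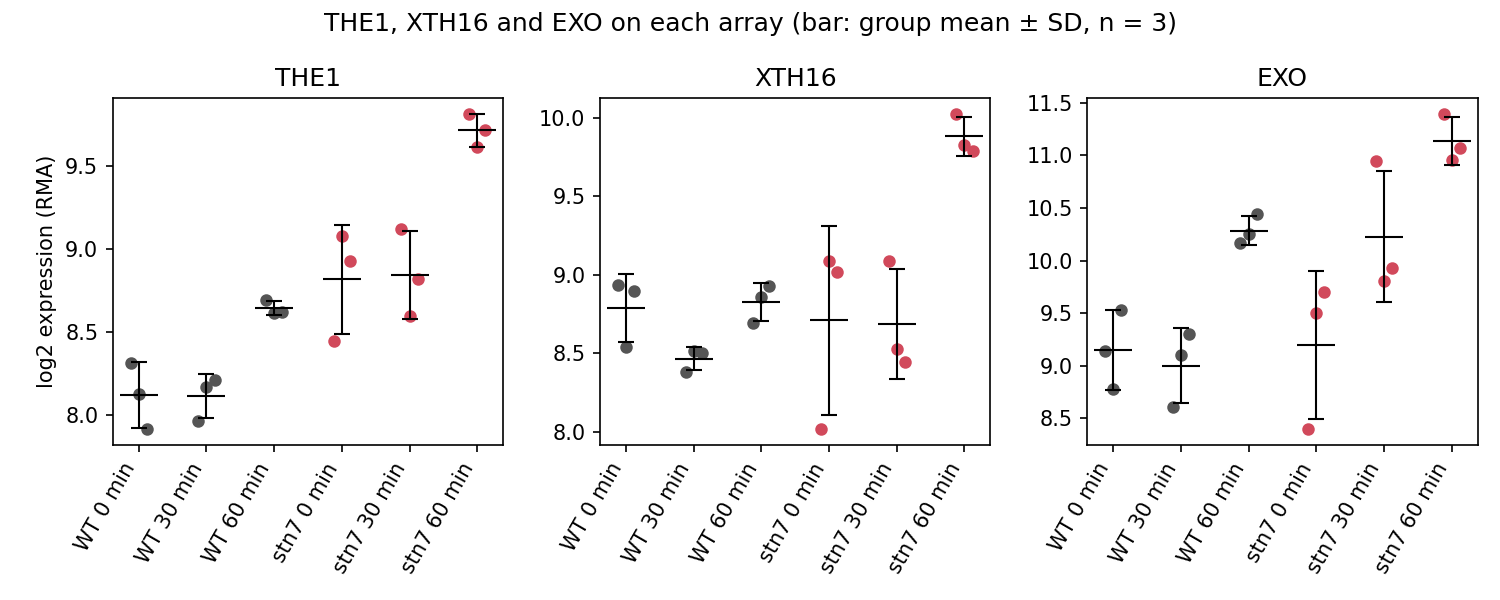
Log2 expression (RMA) of THE1, XTH16 and EXO on each of the 18 arrays, by group, with points for single arrays and bars for the group mean ± SD (n = 3). The 3 stn7 arrays at 60 min are the highest of each gene, and each panel has its own vertical scale.

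Between genotypes the arrays did not overlap for 1 of the 3 genes at 0 min, for 2 at 30 min and for 3 at 60 min. Over all probe sets all 3 stn7 arrays lay above all 3 WT arrays for 13.7%, 11.2% and 18.3% at these times. Since the genes were chosen for being higher in stn7, nothing is read from these counts. Ordered by group mean, all 3 genes were lowest in WT at 30 min and highest in stn7 at 60 min. For THE1 the order ran WT 30 min (8.12), WT 0 min (8.12), WT 60 min (8.64), stn7 0 min (8.82), stn7 30 min (8.85) and stn7 60 min (9.71). In this order neighbours overlapped except between WT 0 min and WT 60 min and between stn7 30 min and stn7 60 min. For XTH16 the first 5 groups, from WT 30 min (8.46) to WT 60 min (8.83), each overlapped with the next, and only stn7 60 min (9.88) was separate from its neighbour. For EXO WT 30 min (9.00), WT 0 min (9.15) and stn7 0 min (9.20) each overlapped with the next of these 3. The arrays of stn7 0 min lay below those of the next higher group, stn7 30 min (10.23), which overlapped with WT 60 min (10.29), and stn7 60 min (11.14) was separate.

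The differences of XTH16 and EXO between genotypes moved with the within-group axis, and those of THE1 less so. With the axis score as a covariate the XTH16 difference was 0.53 ± 0.18 at 0 min and 0.54 ± 0.17 at 60 min, in place of -0.08 and 1.05. The EXO difference became 0.86 ± 0.28 at 0 min and 0.17 ± 0.27 at 60 min, in place of 0.05 and 0.85, and at 30 min it stayed at 1.24 ± 0.21. For THE1 the values with the covariate were 0.91 ± 0.18, 0.73 ± 0.14 and 0.89 ± 0.17, in place of 0.70, 0.73 and 1.07. The means over times were 0.84 ± 0.08 for THE1, 0.43 ± 0.08 for XTH16 and 0.76 ± 0.12 for EXO with the covariate. The part of the axis in these differences was not tested. With the 3' to 5' difference as a covariate the 60 min differences were 1.06 ± 0.16, 1.02 ± 0.23 and 0.84 ± 0.33 for THE1, XTH16 and EXO.

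**Figure D2:**
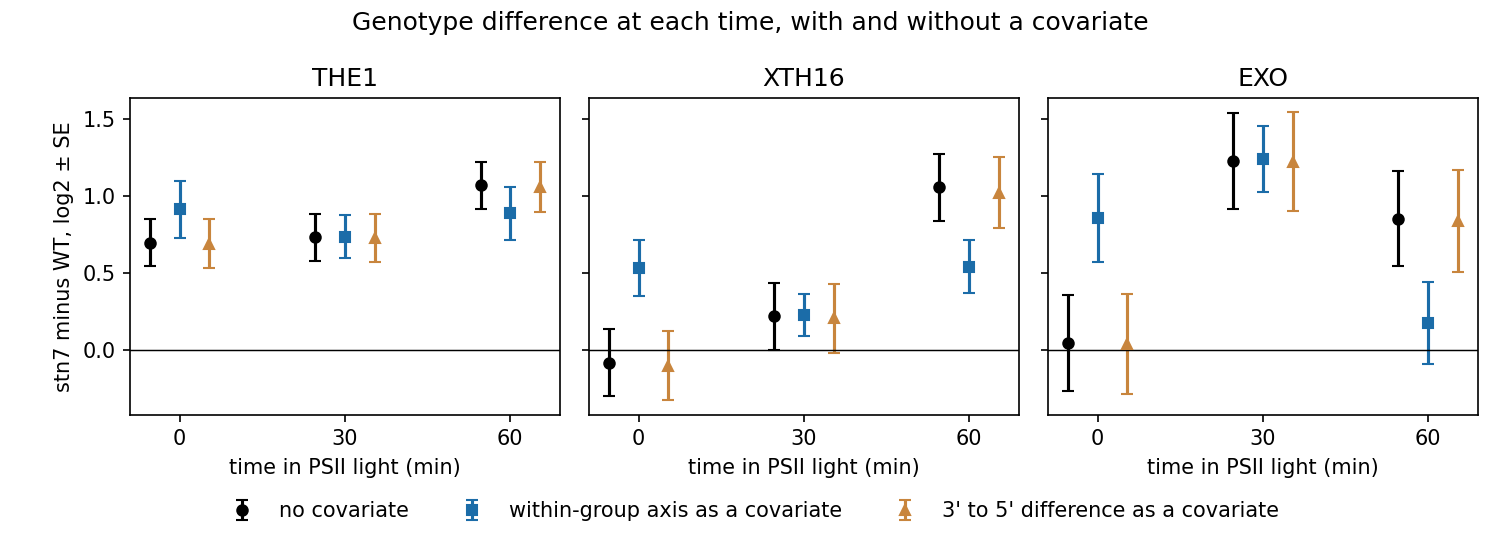
Difference between stn7 and WT (log2, ± SE) at 0, 30 and 60 min in PSII light for THE1, XTH16 and EXO, without a covariate and with the within-group axis or the 3' to 5' difference as a covariate. With the axis, XTH16 at 60 min goes from 1.05 to 0.54 and EXO at 60 min from 0.85 to 0.17. THE1 goes from 0.70 to 0.91 at 0 min and from 1.07 to 0.89 at 60 min.

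On some single arrays the 3 genes also deviated together. In stn7 at 0 min replicate 1 was the lowest array for all 3, with deviations from the group mean of -0.37 (THE1), -0.69 (XTH16) and -0.80 (EXO) and of -22.3 in its axis score. In stn7 at 30 min replicate 1 was the highest for all 3, by 0.28, 0.40 and 0.72, with an axis score 14.2 above its group. Replicate 1 was also the highest for all 3 in stn7 at 60 min and the lowest for all 3 in WT at 30 min. In the remaining 2 groups, WT at 0 min and at 60 min, no array was lowest or highest for all 3. In WT at 0 min replicate 3 was the lowest for THE1 (-0.20) but the highest for EXO (0.38). The pooled SD within groups was 0.20 for THE1, 0.31 for XTH16 and 0.45 for EXO.

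**Figure D3:**
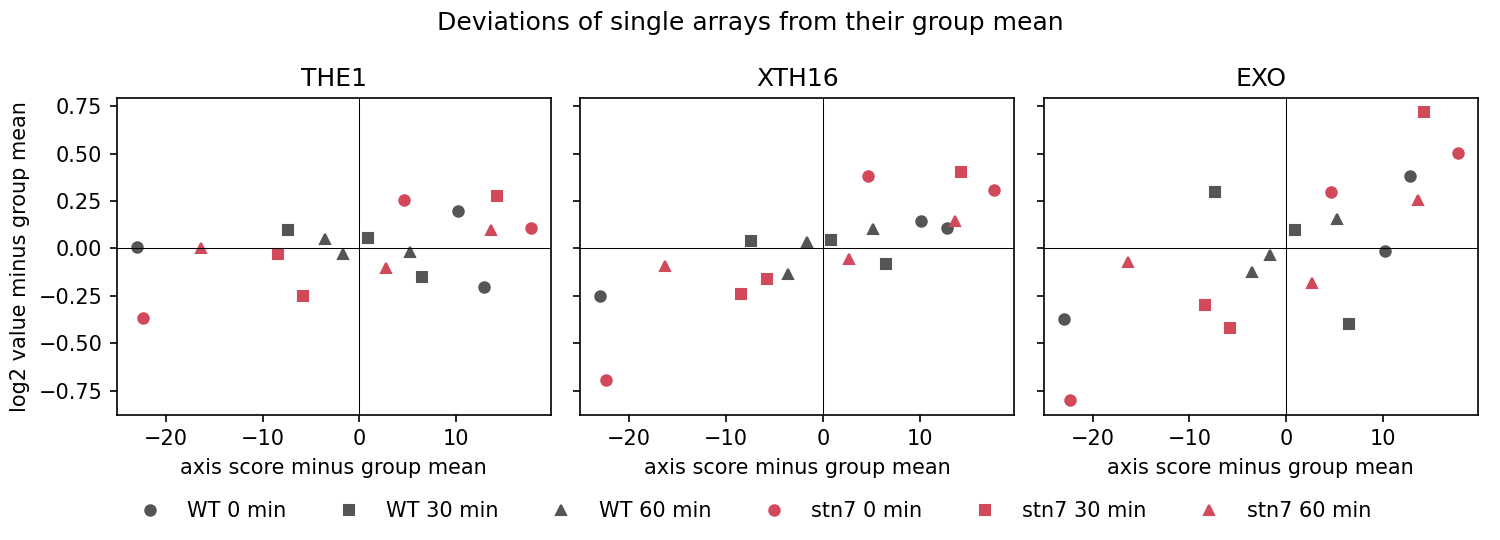
Deviation of each array from its group mean for THE1, XTH16 and EXO (log2, vertical) against the deviation of its within-group axis score (horizontal, no unit), with colours for genotype and shapes for time. The lowest point of each panel is stn7 0 min replicate 1, and EXO covers the widest vertical range. The 18 points share group means and the axis was computed from all probe sets, these 3 included.

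The change with time was tested as the mean of both genotypes, because in this balanced design its error is uncorrelated with that of the genotype difference. The rise of EXO within stn7 was also known when the genes were chosen and shares arrays with this mean, so the tests of EXO are not independent of the choice. THE1 and XTH16 differed most between genotypes at 60 min, and the stn7 arrays of that time also enter this mean. Their tests are therefore not taken as independent of the choice either. The test was limma's moderated test over all 22746 probe sets, with p adjusted by Benjamini-Hochberg and called under 0.05. From 0 to 60 min all 3 genes rose: EXO by 1.54 ± 0.22 (2.9-fold, limma adjusted p = 4.22e-05), THE1 by 0.71 ± 0.11 (1.63-fold, limma adjusted p = 7.71e-05) and XTH16 by 0.61 ± 0.15 (1.52-fold, limma adjusted p = 0.00644). Over all probe sets 13.2% rose in this comparison. The direction held in 6 of 6 arrays at 60 min against the 0 min mean of their own genotype for THE1 and EXO, and in 5 of 6 for XTH16. The mean of XTH16 joined 0.04 ± 0.22 in WT, where the arrays overlapped, and 1.17 ± 0.22 in stn7. Without a covariate its mean rise therefore lay almost wholly in stn7. With the axis score as a covariate XTH16 rose by 0.86 ± 0.21 in WT and by 0.86 ± 0.15 in stn7.

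From 30 to 60 min all 3 rose again, EXO by 1.098 ± 0.22 (limma adjusted p = 0.00274), XTH16 by 0.78 ± 0.15 (limma adjusted p = 0.0025) and THE1 by 0.70 ± 0.11 (limma adjusted p = 0.000397). Over all probe sets 7.08% rose between these times. From 0 to 30 min 0 of the 3 passed the threshold in limma, whereas 29.2% of all probe sets passed it and 15.5% rose. Of the 3 genes 0 had an unadjusted p under 0.05 in limma either. The changes were 0.01 (95% interval -0.21 to 0.24) for THE1, -0.17 (-0.50 to 0.15) for XTH16 and 0.44 (-0.02 to 0.90) for EXO. Without stn7 0 min replicate 1 XTH16 changed by -0.35 ± 0.11 from 0 to 30 min (limma adjusted p = 0.0222). With the axis score in the fit, EXO changed by 1.12 ± 0.22 (limma adjusted p = 0.00651).

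The 60 min groups also had the largest mean 3' to 5' difference in the controls. With that difference as a covariate the rise from 0 to 60 min was 1.49 ± 0.33 for EXO and 0.68 ± 0.16 for THE1, both still called. That of XTH16 was 0.51 ± 0.23 and was no longer called (limma adjusted p = 0.173). From 30 to 60 min none of the 3 was called with this covariate, although their changes were 0.66 ± 0.17, 0.66 ± 0.25 and 1.04 ± 0.35 for THE1, XTH16 and EXO. The part of RNA integrity in these rises was not tested.

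**Figure D4:**
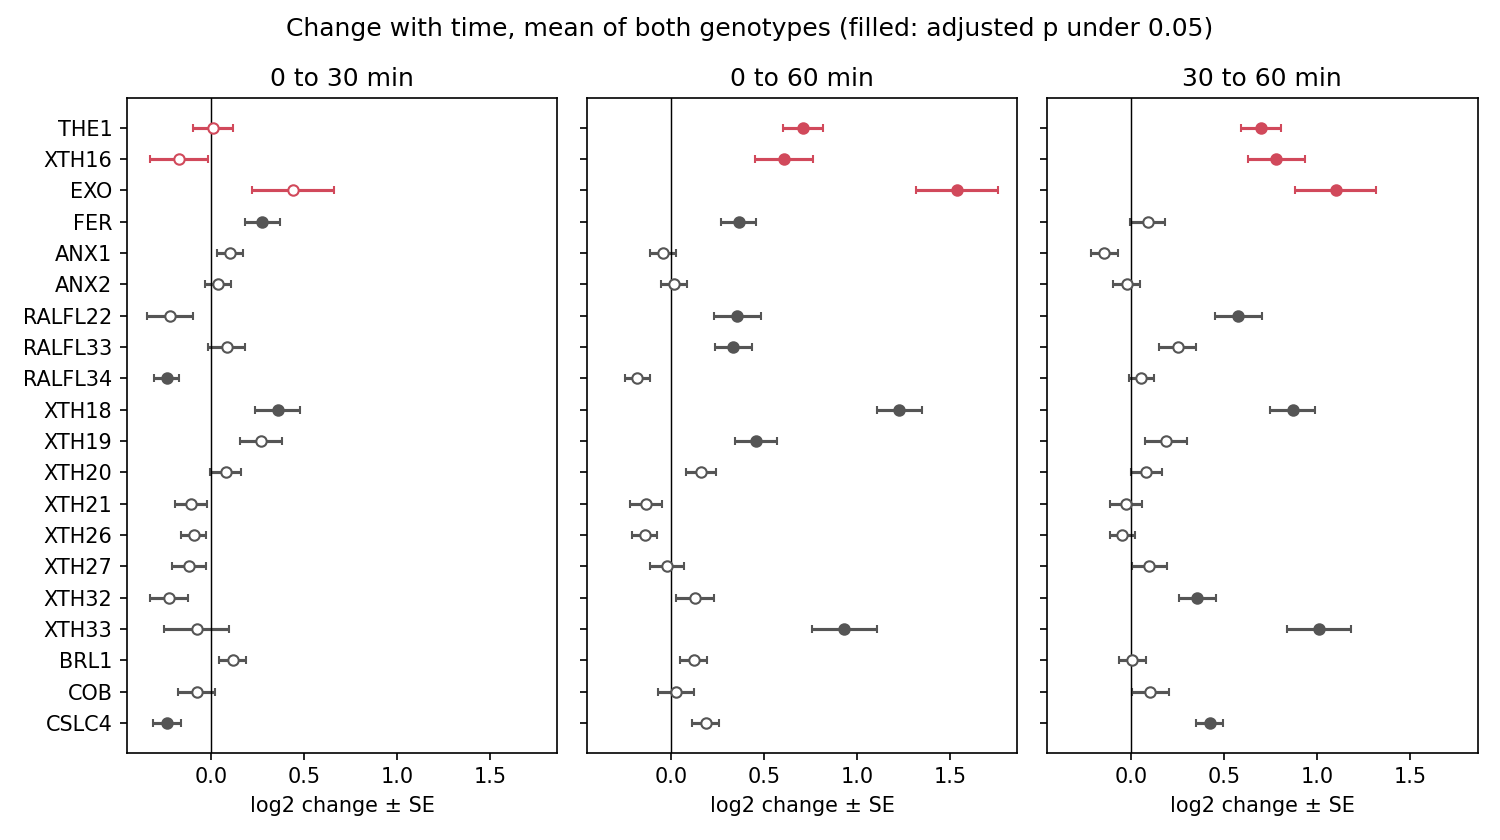
Change with time as the mean of both genotypes (log2, ± SE) for THE1, XTH16 and EXO in red and for 17 other genes of the wall and brassinosteroid lists in grey, from 0 to 30, 0 to 60 and 30 to 60 min. Filled points passed an adjusted p of 0.05 in limma. The 3 genes and XTH18, XTH33 and RALFL22 rose both from 0 to 60 and from 30 to 60 min.

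Within a genotype the time courses differed in shape among the 3 genes, and these values share arrays with the differences that chose the genes, so they are given without a test. THE1 changed by 0.52 ± 0.15 in WT and by 0.89 ± 0.15 in stn7 from 0 to 60 min, nearly all of it after 30 min. XTH16 changed by 0.04 ± 0.22 in WT and by 1.17 ± 0.22 in stn7, where 0.83 ± 0.16 was left without stn7 0 min replicate 1. From 0 to 30 min XTH16 changed by -0.32 ± 0.22 in WT, where the 30 min arrays all lay below those at 0 min, and by -0.02 ± 0.22 in stn7. EXO changed from 0 to 60 min by 1.14 ± 0.31 in WT and by 1.94 ± 0.31 in stn7. In its first 30 min EXO changed by -0.15 ± 0.31 in WT and by 1.03 ± 0.31 in stn7, the latter 0.67 ± 0.30 without stn7 30 min replicate 1 and 0.63 ± 0.28 without stn7 0 min replicate 1. With the axis as a covariate EXO changed by 0.93 ± 0.33 in WT and by 1.31 ± 0.22 in stn7 from 0 to 30 min, so the direction in WT turned, and by 2.21 ± 0.33 and 1.53 ± 0.23 from 0 to 60 min. XTH16 changed with it by 0.49 ± 0.21 in WT and by 0.19 ± 0.14 in stn7 from 0 to 30 min, both turned.

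The arrays at 60 min lay above all those at 0 min in both genotypes for 2 of the 3 genes, THE1 and EXO, as for 4.99% of all probe sets (20.1% in WT alone and 16.2% in stn7 alone). Above those at 30 min they lay for all 3 genes in both genotypes, as for 3.48% of all probe sets (8.29% in WT alone and 16.1% in stn7 alone). For EXO in stn7 this was by a narrow margin, with 10.96 for the lowest array at 60 min and 10.94 for the highest at 30 min. Its stn7 change from 30 to 60 min was 0.22 ± 0.27 with the axis as a covariate. From 0 to 30 min EXO was the only one of the 3 whose stn7 arrays all moved above those at 0 min, as did 13.6% of all probe sets, and for 0 of the 3 did the WT arrays, against 18.2%. The stn7 arrays behind these counts also chose the genes, so nothing is read from the counts. The stn7 change less the WT change was 0.37 ± 0.21 for THE1, 1.13 ± 0.31 for XTH16 and 0.80 ± 0.44 for EXO from 0 to 60 min, and from 0 to 30 min it was 0.03 ± 0.21, 0.30 ± 0.31 and 1.18 ± 0.44. Over all probe sets 22.4% differed in the 60 min response (11.1% higher) and 2.04% in the 30 min response (0.954% higher). With the axis as a covariate the 60 min values were -0.02 ± 0.30, 0.01 ± 0.30 and -0.68 ± 0.46, so the direction turned for THE1 and EXO. The 30 min values with it were -0.18 ± 0.23, -0.30 ± 0.23 and 0.38 ± 0.35, turned for THE1 and XTH16. From 0 to 60 min XTH16 changed with it by 0.86 ± 0.21 in WT and by 0.86 ± 0.15 in stn7. Without both WT 0 min arrays with high axis scores, replicates 1 and 3, the 60 min values were 0.38 ± 0.26 for THE1, 0.88 ± 0.38 for XTH16 and 0.43 ± 0.53 for EXO. Without stn7 0 min replicate 1 the 60 min values were 0.19 ± 0.19, 0.79 ± 0.22 and 0.40 ± 0.38 for THE1, XTH16 and EXO, and the 30 min values -0.15 ± 0.19, -0.05 ± 0.22 and 0.78 ± 0.38.

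The families and pathways of the 3 genes were followed through lists of 104 other genes, of which 17 had a named probe set. From 0 to 60 min 6 of the 17 rose and 0 fell, with a median change of 0.13 against -0.01 over all probe sets, of which 25.7% changed. From 30 to 60 min 5 rose and 0 fell (median 0.10, against -0.01), where 14.8% of all probe sets changed. From 0 to 30 min 2 rose and 2 fell (median -0.08, against 0.001), a share near the 29.2% of all probe sets that changed. The calls of FER, RALFL34 and CSLC4 in this comparison were lost with the axis score as a covariate. That of XTH18 was lost with arrays centred on the same median. The lists for the EXO family and for growth genes downstream of EXO or brassinosteroid had 0 named members besides EXO.

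Among 3 other CrRLK1L receptor kinases FER (FERONIA), a receptor of RALF peptides needed for normal growth, was at 9.26, 9.31 and 9.57 in WT at 0 min and at 9.94, 9.71 and 9.76 at 60 min. In stn7 it went from 9.69, 9.66 and 9.46 to 9.94, 9.88 and 9.91, with no overlap between 0 and 60 min in either genotype. It rose by 0.36 ± 0.09 from 0 to 60 min (limma adjusted p = 0.00741) and its difference between genotypes was 0.20 ± 0.08 (limma adjusted p = 0.11). The pollen receptors ANX1 and ANX2 stayed between 3.19 and 3.94, near the lowest values of the arrays, and passed no test. The call of FER from 0 to 30 min (0.28 ± 0.09, limma adjusted p = 0.0344) was lost when any 1 of 5 arrays was left out, with an adjusted p of up to 0.0936. Those were WT 0 min replicates 1 and 2, WT 30 min replicate 3, stn7 0 min replicate 3 and stn7 30 min replicate 3.

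RALF peptides are secreted signals read by CrRLK1L kinases, and 3 of the 15 ligands, partners and other wall receptors listed were measured. RALFL34, which encodes the RALF34 peptide bound by THE1, fell by 0.24 ± 0.07 from 0 to 30 min (limma adjusted p = 0.0129). It changed by -0.40 ± 0.10 in WT (limma adjusted p = 0.0048) and by -0.07 ± 0.10 in stn7 (limma adjusted p = 0.728). The difference between these changes, 0.33 ± 0.14, was not called (limma adjusted p = 0.186). At 0 min the mean of RALFL34 was lower in stn7 (10.87) than in WT (11.21). Its fall as a mean of both genotypes lost its call when the axis score entered the fit. The calls of RALFL33 and RALFL22 from 0 to 60 min were lost when arrays were centred on the same median, and with the 3' to 5' covariate (limma adjusted p = 0.157 and 0.208). That of RALFL22 from 30 to 60 min was lost with the 3' to 5' covariate too (limma adjusted p = 0.161). RALFL33 rose by 0.33 ± 0.10 from 0 to 60 min (limma adjusted p = 0.0183; 0.0528 without WT 60 min replicate 2). RALFL22 rose by 0.58 ± 0.13 from 30 to 60 min (limma adjusted p = 0.00519), and its call from 0 to 60 min (0.36 ± 0.13, limma adjusted p = 0.0452) was lost when any 1 of 13 arrays was left out. The 5 whose omission kept that call were WT 0 min replicate 3, WT 60 min replicate 1, stn7 0 min replicate 2, stn7 30 min replicate 1 and stn7 60 min replicate 3.

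Of 8 other XTH genes 3 rose from 0 to 60 min and 0 fell, where 13.2% of all probe sets rose. XTH18 was at 7.09, 6.86 and 7.15 in WT at 0 min and at 8.42, 8.46 and 8.77 at 60 min, and in stn7 it went from 7.34, 7.62 and 7.28 to 8.82, 8.21 and 8.01. It rose by 1.23 ± 0.12 (limma adjusted p = 6.71e-07), with a difference between genotypes of -0.06 ± 0.10 (limma adjusted p = 0.754), and its genotypes overlapped at 60 min. XTH33 was at 6.13, 5.95 and 6.37 in WT at 0 min and at 6.7, 6.92 and 6.63 at 60 min, and in stn7 it went from 5.98, 6.6 and 6.83 to 8.32, 7.25 and 7.63. It rose by 0.93 ± 0.17 (limma adjusted p = 0.000562), and XTH19 by 0.45 ± 0.11 (limma adjusted p = 0.00604). XTH20, XTH21 and XTH26 stayed between 3.25 and 4.1, near the lowest values. XTH18 and XTH19 are close relatives, as are other members of the family, and whether their probes tell them apart was not tested.

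Between genotypes, as a mean over times, 3 of the 17 list genes were higher in stn7 and 0 lower, where 10.1% of all probe sets differed and 6.32% were higher. XTH33 was higher by 0.51 ± 0.14 (limma adjusted p = 0.0289), XTH27 by 0.30 ± 0.08 (limma adjusted p = 0.0171) and CSLC4, the synthase of the xyloglucan backbone, by 0.28 ± 0.06 (limma adjusted p = 0.0075). The call of XTH33 was lost when any 1 of 5 arrays was left out (adjusted p up to 0.0609), namely WT 30 min replicate 1, WT 60 min replicate 3, stn7 0 min replicates 2 and 3 and stn7 30 min replicate 1. It was also lost with quantile normalization, and the call of XTH27 was lost with arrays centred on the same median. CSLC4 fell by 0.24 ± 0.07 from 0 to 30 min (limma adjusted p = 0.0203) and rose by 0.42 ± 0.07 from 30 to 60 min (limma adjusted p = 0.00096). The adjusted p of its fall reached 0.0619 when WT 0 min replicate 1, stn7 0 min replicate 2 or stn7 30 min replicate 3 was omitted, which ended the call. It changed by -0.42 ± 0.10 in WT and by -0.06 ± 0.10 in stn7 from 0 to 30 min. The difference between these changes, 0.36 ± 0.15, was not called (limma adjusted p = 0.178). With the 3' to 5' covariate the 30 to 60 min calls of CSLC4 and XTH32 were lost (limma adjusted p = 0.216 and 0.13). XTH32 rose by 0.35 ± 0.10 from 30 to 60 min (limma adjusted p = 0.0239). Its call ended when any of 5 arrays was omitted (adjusted p up to 0.078): replicate 1 of WT 30 min, 2 of WT 60 min, 3 of stn7 30 min and 1 and 2 of stn7 60 min. XTH18 rose from 0 to 30 min by 0.36 ± 0.12 (limma adjusted p = 0.0317), and this call ended when any of 6 arrays was omitted (adjusted p up to 0.0863): replicate 2 of WT 0 min, 3 of WT 30 min, 1 and 3 of stn7 0 min and 1 and 2 of stn7 30 min.

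The only measured gene of the 19 for brassinosteroid synthesis and signalling was BRL1, a brassinosteroid receptor of vascular cells, which lay between 3.73 and 4.26 and changed by 0.12 ± 0.07 from 0 to 60 min (limma adjusted p = 0.252). The only one of the 12 for cellulose synthesis was COB (COBRA), an anchored wall protein needed for oriented cellulose deposition. It changed by 0.03 ± 0.10 (limma adjusted p = 0.893) from 0 to 60 min.

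The probe sets most like each gene were found among 13512 others with 1 gene, by the root mean square difference of the log2 values over the 18 arrays, each gene centred on its own mean. THE1 itself varied by 0.56 about its mean on this measure, XTH16 by 0.52 and EXO by 0.86. Nearest to THE1 were AT5G13400 (0.23), ULT1, a regulator of meristem genes (0.26), AT5G65470 (0.27), CSLA03 of the cellulose synthase-like A family (0.27) and the actin gene ACT11 (0.28). Nearest to XTH16 were AT2G31730 (0.19), AT2G32220 (0.20), RALFL22 (0.21), AT2G19780 (0.22) and AT5G26790 (0.22). Nearest to EXO were AT1G61890 (0.33), AT1G28600 (0.37), AT4G21870 (0.43), XTH33 (0.45) and AT4G34950 (0.46). So 2 of the 15 neighbours, RALFL22 and XTH33, came from the wall lists. Between the 3 genes the difference was 0.32 for THE1 and XTH16, 0.50 for THE1 and EXO and 0.52 for XTH16 and EXO. Seen from EXO, THE1 ranked 12 and XTH16 ranked 23 among the nearest probe sets, while EXO ranked 1277 seen from THE1 and 4000 seen from XTH16. XTH16 ranked 23 seen from THE1, and THE1 ranked 87 seen from XTH16.

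**Figure D5:**
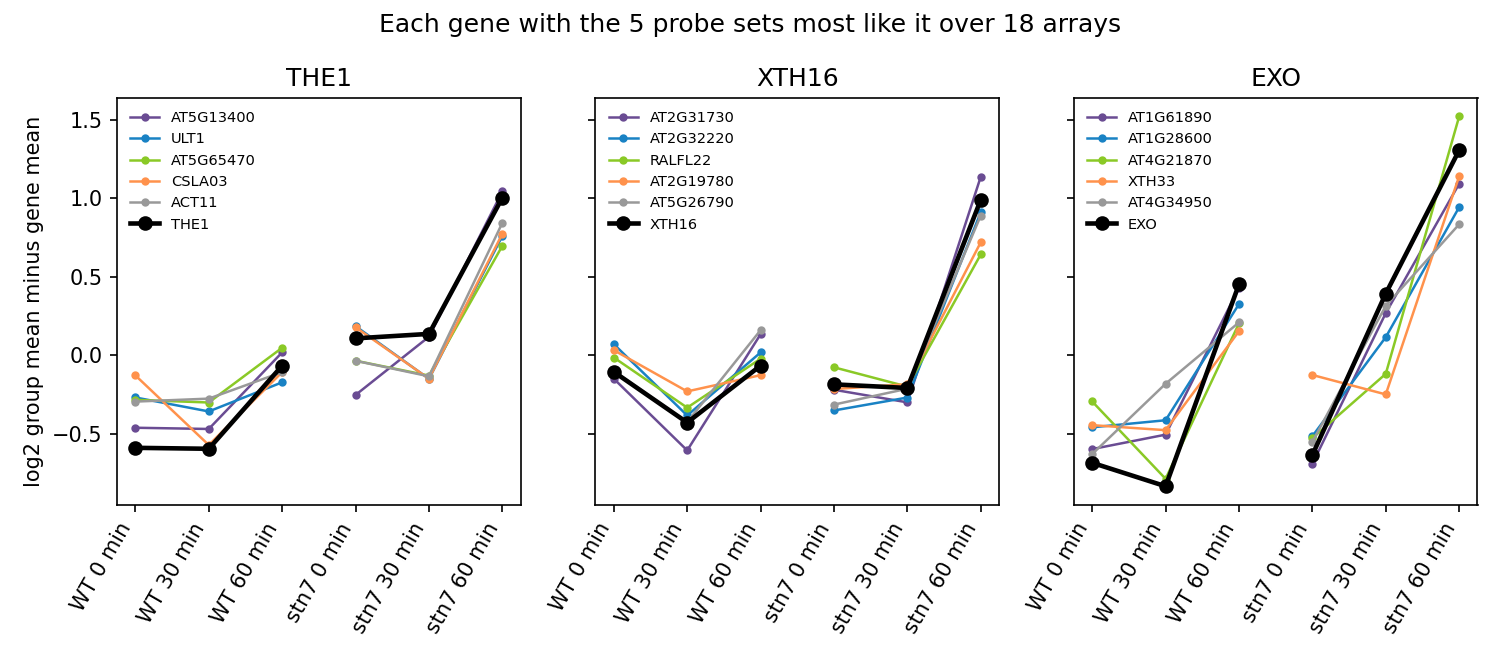
Group means of THE1, XTH16 and EXO (black) and of the 5 probe sets most like each over 18 arrays (colours), as log2 value minus the mean of that gene over all arrays. All profiles are highest in stn7 at 60 min, and those in the THE1 and EXO panels are also higher in WT at 60 min than in WT at 0 and 30 min.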

How the data were processed

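Expression was measured in 18 samples of rosette leaves, grouped by the titles of the labels into 6 groups of 3 biological replicates. The deposited values are on the log2 scale, and per the submitters' processing notes the authors worked with GCOS, RMA and version 1.1 of Affymetrix Expression Console. How RMA was set is not given in the sources used here; its quantile step can shrink a change that most genes share, and RMA compresses changes of dim probe sets. Of 22810 probe sets 64 controls were removed and 22746 were tested with no filter. The supplied annotation gave 1 gene to 13513 (59.4%), several to 503 and did not list 8730. Names and loci follow RefSeq (TAIR10.1) where the gene was found there. No probe set of STN7 itself was found under this annotation, so the knockout was not checked.

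The model gave each group its own mean over the 18 arrays. It was run in R 4.3.3 with limma 3.58.1, lmFit and eBayes included, two-sided, with 17.8 degrees of freedom and Benjamini-Hochberg adjustment over 22746 probe sets in each comparison. A probe set was called at an adjusted p under 0.05. Plots used Python 3.11.15 with pandas 2.3.3 and matplotlib 3.10.9. The fit was run on simulated data with independent noise for each probe set and array. Those data lacked the within-group axis of the real arrays, so the run does not show how the fit behaves with it. The 3 genes and the lists were chosen with earlier results of these data known, among them the rise of EXO in stn7, and give no independent support to them. List genes were named where called, or by the smallest p of a list, with the brightest probe set per gene. The 5 most like probe sets were named per gene. ANX1, ANX2, XTH20, XTH21 and XTH26 were named for their low levels after their values were seen. The axis covariate was the projection of each array on the first component of the deviations from the group means, and the 3' to 5' covariate the mean of 6 control pairs. Alternatives were another normalization or centring, filters on dim probe sets, a trended robust variance, array weights, a replicate block, both covariates and leaving out each array. A fit without WT 0 min replicates 1 and 3 was added after seeing the data. It leaves 1 array in WT at 0 min, which lowers precision, so its calls of list genes are not given. Precision is limited by the number of arrays. No array pair held identical values.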

Additional observations from a re-analysis of the deposited data

Results flagged for a closer look

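In the test of the difference itself (change from 0 to 60 min, stn7 minus WT, limma), 5 of the 17 list genes passed, where 22.4% of all probe sets did. The difference was 0.73 ± 0.25 for RALFL22 (limma adjusted p = 0.046), which changed by -0.01 in WT and by 0.72 in stn7. It was 0.48 ± 0.15 for CSLC4 (limma adjusted p = 0.0244), which changed by -0.06 in WT and by 0.43 in stn7. It was 0.86 ± 0.20 for XTH32 (limma adjusted p = 0.00588), which changed by -0.30 in WT and by 0.56 in stn7. For RALFL34 it was 0.49 ± 0.14 (limma adjusted p = 0.0141) and for XTH26 0.40 ± 0.13 (limma adjusted p = 0.0383), and here the larger change was in WT, by -0.43 and -0.34, against 0.06 and 0.06 in stn7. RALFL34, the gene of the THE1 ligand, went from 11.22, 11.18 and 11.24 to 10.73, 10.82 and 10.79 in WT and from 10.81, 10.95 and 10.84 to 10.92, 11.06 and 10.83 in stn7. XTH32 went from 9.48, 9.47 and 9.31 to 9.08, 9.2 and 9.07 in WT and from 8.6, 8.87 and 9.21 to 9.63, 9.51 and 9.2 in stn7. XTH26 lay near the lowest values of the arrays. None of the 5 passed once the within-group axis score entered the fit. RALFL34 and XTH32 kept their calls whichever single array was omitted. The call of RALFL22 was lost when any 1 of 12 arrays was left out, that of XTH26 with any of 9 and that of CSLC4 with any of 4 (WT 0 min replicate 1, WT 60 min replicate 2, stn7 0 min replicate 1 and stn7 60 min replicate 3), with adjusted p up to 0.135, 0.0984 and 0.0758. In the same test from 0 to 30 min 0 of the 17 passed (limma), where 2.04% of all probe sets did. At an unadjusted p under 0.05 there were 4 (RALFL33, RALFL34, XTH18 and CSLC4). The share of all probe sets at that looser threshold was not computed, so nothing is read from this count.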

How the results depend on the processing

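The 9 tests of the 3 genes over time gave the same call under 246 of 252 combinations of test and alternative. With the 3' to 5' covariate the changes from 30 to 60 min were no longer called for THE1 (0.66), XTH16 (0.66) and EXO (1.04), nor that of XTH16 from 0 to 60 min (0.51). With the axis as a covariate EXO was called from 0 to 30 min (1.12). Leaving out each array in turn, XTH16 from 0 to 30 min ran from -0.35 to -0.08 and was called once, without stn7 0 min replicate 1. The list genes called from 0 to 30 min, 4 in all, ran from 2 to 6 over these omissions (2 without replicate 1 or 2 of WT 0 min or replicate 3 of WT 30 min, stn7 0 min or stn7 30 min), and were 2 with the axis. From 30 to 60 min 2 were called with the 3' to 5' covariate, against 5. Between genotypes 5 were called with array weights and 5 with the axis, against 3. The genotype differences as a mean over times moved by less than the pooled SD of single arrays within groups under every alternative. That SD (0.20, 0.31 and 0.45 for THE1, XTH16 and EXO) is a wide bar beside the SE of these means (0.09, 0.13 and 0.18). Differences at single times could move further, as that of EXO at 60 min did with the axis, from 0.85 to 0.17. The cause of these shifts was not tested.

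The replicate numbers of the titles showed no clear sign of pairing, which this check cannot exclude. For replicate 3 of both 0 min groups another label field carries another number. Of 45 same-number pairs 13 had deviations correlated over 0.1 (range -0.41 to 0.33). Arrays correlated best with their own number in 28 of 90 combinations of an array and another group, and 0 of 18 arrays did so in every other group. With the replicate block the rise from 0 to 60 min was 1.54 for EXO, 0.71 for THE1 and 0.61 for XTH16, and the block changed no call of the 3 genes. Over all probe sets it moved the calls from 0 to 60 min from 5837 to 5553. With arrays centred on the same median, 2326 of 6154 calls from 0 to 60 min were higher, against 3009 of 5837, 2521 of 7024 from 0 to 30 min, against 3536 of 6635, and 795 of 2539 between genotypes, against 1437 of 2292. Adding the axis left 807 calls from 0 to 30 min. Adding the 3' to 5' difference left 2844 from 0 to 60 min and 247, against 3367, from 30 to 60 min.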
